A study of Mus musculus with 8 samples.

Results

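The circadian clock and output genes described here were Dbp, Tef, Hlf, Nr1d1, Nr1d2, Per1, Per2, Per3, Arntl and Bhlhe41. These 10 genes were chosen by Dbp, whose counts were higher in AMPKα2 knockout (KO) than in wild-type (WT) muscle, together with its partners in the clock. They took 10 of the 15378 genes and 48 of the 56483 alternative polyadenylation sites (APSs) of the data. An APS is a position where transcripts end and receive their poly(A) tail, and each of the 48 sites carried the symbol of a member. Because the AMPKα2 contrast chose the set, its values in that contrast are given as a description without a test, and the AMPKα1 contrast was tested.

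Whole transcriptome termini site sequencing (WTTS-seq) reads the 3′ ends of polyadenylated transcripts, and it was applied to gastrocnemius muscle with 1 library per mouse. There were 2 AMPKα1 KO, 2 AMPKα1 WT, 2 AMPKα2 KO and 2 AMPKα2 WT mice, 8 libraries in all. AMPKα1 and AMPKα2 are the catalytic subunits of AMP-activated protein kinase, a sensor of cellular energy, and each KO line lacks DNA for part of the catalytic domain of 1 subunit throughout the body. The sample labels give adult mice with a C57BL/6 strain background for all 4 groups, whereas the methods of the study give 129S2/SvPas for the AMPKα1 KO mice. Those methods put the age near 6 weeks for AMPKα1 KO and near 8 weeks for AMPKα2 KO animals, with no age for WT animals. The time of day at which muscle was taken is not given in the sources used here. KO was therefore compared with WT within each model only, and levels were not compared between the models, where age and possibly strain change together with the targeted gene.

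The 8 libraries held between 2311242 and 3549156 reads. Levels are given as CPM, the usual count scaled to library size, here computed by edgeR from the reads in genes and TMM factors over the 8 libraries. The detection floor was set at 3 reads, which equalled 0.44 to 0.866 CPM in AMPKα1 libraries and 1.62 to 3.53 CPM in AMPKα2 libraries. Reads without a gene made up 1.88% to 2.85% of AMPKα1 libraries and 15.3% to 17.9% of AMPKα2 libraries. The spread of counts between replicates was wide in AMPKα1, where the common coefficient of biological variation over genes was 104%, against 26.2% in AMPKα2. Where 1 AMPKα1 KO mouse had 50 reads or more at an APS, the other mouse had none at 30.4% of these sites, compared with 0.293% for the AMPKα2 KO pair. This share was 5.09% for the AMPKα1 WT pair and 0.318% for the AMPKα2 WT pair, so that in AMPKα1 such zeros were more frequent in KO. All 9 myofibre markers were detected, with summed levels from 37634 to 147610 CPM over the groups. Since 3′ reads need not lie in the deleted part, Prkaa1 and Prkaa2, the genes of both subunits, cannot check the labels. The AMPKα1 KO mice had 0 and 82 Prkaa1 reads against 15 and 0 for their WT controls, and the AMPKα2 KO mice 40 and 71 Prkaa2 reads against 87 and 62.

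The clock of a muscle fibre is a transcriptional loop. CLOCK and BMAL1, the product of Arntl, bind E-boxes and switch on the Period and Cryptochrome genes, whose proteins shut the pair off, and REV-ERB repressors (Nr1d1, Nr1d2) act against ROR activators on Arntl. The PAR bZip factors DBP, TEF and HLF carry the rhythm to output genes through D-boxes. Bhlhe41 (DEC2) is an E-box repressor, and in mammals Dbp, Nr1d1 and the Period genes are among the transcripts with the widest daily swings. In bulk muscle, fewer cells that express a gene and less RNA per cell cannot be told apart.

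The binding motifs of the loop were looked for in RefSeq promoters (GRCm38.p6), which cover the 250 bases before to 50 bases after each start and were found for 9 of the 10 genes as 12 promoters. Per2 had none in this table. On both strands, the D-box TTATGTAA was in 0.938% of all 32851 promoters, the E-box CACGTG in 7.15% and the core of the ROR element, AGGTCA, in 16.3%, and no match overlapped another. The Per3 promoter was the only one of the 12 with a D-box and had it at -205 and at -158 from the start. E-boxes were in the promoters of Bhlhe41 (-153), Per1 (-166 in 1 of its promoters, with no match in the other) and Tef (-127 in 1 and -138 in the other of its promoters). An ROR element core was in the same Per1 promoter (-137), in that of Nr1d2 (-77) and in 1 of those of Arntl (32 bases into the transcript). The other Arntl promoter and those of Dbp, Hlf and Nr1d1 had no match. A match is a sequence description only. The bases before the start of Per3, Per1 and Tef are shown with these motifs in capitals, because Per3 alone holds D-boxes and because Per1 and Tef are the E-box holders whose mean level was higher in KO mice of both models.
Per3, chr4:151044666-151044915, minus strand: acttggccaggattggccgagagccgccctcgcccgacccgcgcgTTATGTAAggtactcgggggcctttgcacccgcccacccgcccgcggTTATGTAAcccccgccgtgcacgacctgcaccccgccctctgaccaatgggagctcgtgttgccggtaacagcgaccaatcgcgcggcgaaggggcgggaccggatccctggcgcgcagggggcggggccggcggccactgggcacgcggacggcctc
Per1, chr11:69098699-69098948, plus strand: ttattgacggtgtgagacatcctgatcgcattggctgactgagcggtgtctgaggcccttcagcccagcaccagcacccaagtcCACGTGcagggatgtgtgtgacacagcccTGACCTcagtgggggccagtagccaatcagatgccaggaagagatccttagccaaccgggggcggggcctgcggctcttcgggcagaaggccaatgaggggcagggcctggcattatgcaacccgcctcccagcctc
Tef, chr15:81802423-81802672, plus strand: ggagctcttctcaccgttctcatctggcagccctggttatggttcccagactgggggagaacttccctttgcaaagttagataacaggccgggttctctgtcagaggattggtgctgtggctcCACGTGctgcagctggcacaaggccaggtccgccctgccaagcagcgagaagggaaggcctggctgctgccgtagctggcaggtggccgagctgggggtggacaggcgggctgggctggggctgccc

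Among the D-box factors, Dbp gave the value that chose the set. In AMPKα2 it had 213 and 370 reads in KO mice and 102 and 58 in WT mice, that is 250.4 and 277 CPM against 55.2 and 51.2 CPM. KO averaged 264 ± 19.1 CPM and WT 53.2 ± 2.81 CPM (SD, n = 2), a ratio of 4.96, and both KO mice stood above both WT mice. In AMPKα1 Dbp had 1408 and 1049 reads in KO mice and 965 and 1885 in WT mice. These were 221 and 154 CPM against 279 and 290.03 CPM, so that both KO mice stood below both WT mice. The means were 187 ± 47.2 and 284 ± 8.13 CPM (SD, n = 2), a ratio of 0.659. The difference in AMPKα1 did not pass the test, with a log2 fold change of -0.64 ± 0.38 (SE) and an adjusted p of 0.763 by edgeR's quasi-likelihood test.

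Tef, the second PAR bZip factor, was higher in KO than in WT mice of both models. In AMPKα2 its levels were 195 and 267 CPM in KO mice and 118 and 128 CPM in WT mice, a ratio of 1.88. In AMPKα1 they were 375 and 299 CPM in KO mice and 221 and 239.7 CPM in WT mice, a ratio of 1.46. Neither pair of groups overlapped, but in AMPKα1 the log2 fold change of 0.52 ± 0.36 (SE) did not pass the test (adjusted p = 0.763, edgeR). In AMPKα1, Dbp and Tef thus lay on opposite sides of WT. Dbp reads per Tef read, a quantity that needs no scaling, were 0.589 and 0.515 in AMPKα1 KO against 1.26 and 1.21 in WT mice, and 1.28 and 1.04 in AMPKα2 KO against 0.468 and 0.4 in WT mice. This ratio was lower in both KO mice of AMPKα1 and higher in both KO mice of AMPKα2, where the Dbp values chose the set. In AMPKα1, Dbp reads per Bhlhe41 read were instead higher in KO, at 7.69 and 11.2 against 5.27 and 6.78. Those per Nr1d2 read, or per read of the clock gene Usp2, overlapped there. In AMPKα2 these other ratios were also higher in both KO mice.

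Hlf, the third factor, was sparse. The AMPKα1 KO mice had 72 and 0 Hlf reads and their WT controls 1 and 88, where the 2 mice of a group differed more than the groups did. In AMPKα2 the reads were 16 and 12 against 7 and 18, with overlapping levels of 18.8 and 9.0 CPM against 3.79 and 15.9 CPM. An intron site on the other strand, chr11:90370613, held 4 and 5 of the KO reads and 2 and 16 of the WT reads. On its own strand alone Hlf had 12 and 7 reads in AMPKα2 KO mice against 5 and 2, with no overlap and a log2 fold change of 1.95 in place of 0.54. The AMPKα1 log2 fold change of -0.36 had an SE of 2.45, which leaves its direction undetermined at this depth.

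The Period genes differed among themselves in depth. Per1, which is induced quickly by clock-resetting signals, had 24 and 21 reads in AMPKα2 KO mice and 19 and 8 in WT mice. Its levels of 28.2 and 15.7 CPM lay above the 10.3 and 7.06 CPM of WT, a ratio of 2.54. In AMPKα1, Per1 had 49.7 and 27.0 CPM in KO mice and 10.4 and 31.5 CPM in WT mice, so the groups overlapped, and the log2 fold change of 0.83 ± 0.71 (SE) did not pass the test (adjusted p = 0.865, edgeR). Per3, a weaker partner of the other Period proteins, had 131 and 200 reads in AMPKα1 KO and 24 and 71 in WT mice. Both KO mice stood above both WT mice at 20.5 and 29.4 against 6.93 and 10.9 CPM, a ratio of 2.80, but the log2 fold change of 1.45 ± 0.71 (SE) did not pass the test (adjusted p = 0.763, edgeR). In AMPKα2 Per3 kept the same order on few reads, 8 and 6 in KO and 4 and 2 in WT mice, where the second WT mouse was under the floor of 3 reads. Per1 and Per3 were thus higher on average in KO mice of both models, though without a passed test in AMPKα1. All 3 Per3 sites lie inside Camta1 on the same strand, so that every read counted for Per3 could belong to either gene.

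Per2, a core repressor of the loop, could not be read from its gene sum in AMPKα2. Summed over the gene, AMPKα2 KO mice had 128 and 180 reads and WT mice 87 and 154, while AMPKα1 KO mice had 0 and 37 and WT mice 7 and 39. The site at its annotated end, chr1:91415984, had 1 read in the 4 AMPKα2 libraries, in KO 2. Of the 549 AMPKα2 reads, 548 came from a site at chr1:91423943 on the plus strand, antisense to a Per2 exon and 7961 bases before the end of the gene. That antisense site had 0 reads in AMPKα1 libraries. On its own strand, therefore, Per2 was at or under the floor of 3 reads in all AMPKα2 libraries, and its AMPKα2 level was a level of antisense reads.

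Nr1d1, which encodes REV-ERBα, differed more between mice of a group than between genotypes. It had 103 and 385 reads in AMPKα1 KO mice and 242 and 128 in WT mice. In AMPKα2 the KO mice had 4 and 62 Nr1d1 reads and the WT mice 31 and 26, so that the KO mice, at 4.70 and 46.5 CPM, lay on both sides of the WT mice at 16.8 and 22.9 CPM. Its log2 fold change in AMPKα1 was -0.31 ± 0.85 (SE), with no passed test (adjusted p = 0.999, edgeR). Nr1d2, the second REV-ERB gene, had 406 and 120 reads in AMPKα1 KO and 147 and 438 in WT mice, again with overlapping levels (log2 fold change -0.48 ± 0.69, SE). In AMPKα2 Nr1d2 was at 37.6 and 35.2 CPM in KO and 28.1 and 12.4 CPM in WT mice, with no overlap and a ratio of 1.80. Scaled by library totals alone these groups overlapped, at 15.2 and 21.4 against 17.5 and 6.65 CPM. They also overlapped at the leading Nr1d2 site taken alone. The 4 Nr1d1 sites near its end lie within Thra, a gene on the other strand, from which the strand recorded for each site separates them. The remaining site, outside Thra, chr11:98771864, gave 37 of the 62 AMPKα2 KO 2 reads and 1 read in the other 7 libraries.

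Arntl, the positive arm of the loop, was nearly absent from these libraries. It had 46 reads at 1 intron site in AMPKα1 KO 2 and 0 reads in the other 7 libraries, so no fold is given. Bhlhe41, the E-box repressor, was better covered and showed opposite orders in the models. In AMPKα1 it was at 28.7 and 13.8 CPM in KO and 52.8 and 42.8 CPM in WT mice, a ratio of 0.445 with no overlap, and the log2 fold change of -1.21 ± 0.57 (SE) did not pass the test (adjusted p = 0.763, edgeR). In AMPKα2 it was at 58.8 and 44.2 CPM in KO and 31.9 and 42.4 CPM in WT mice, a ratio of 1.39. The closest KO and WT mice of AMPKα2 were 44.2 and 42.4 CPM, from 59 and 48 reads. Groups that did not overlap in either model and took opposite orders were found for Dbp and Bhlhe41, 2 of the 9 members tested in both models, and for 6.61% of the 9419 genes tested in both. The order of these 2, below WT in AMPKα1 and above it in AMPKα2, was found for 3.89%.

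**Figure D1:**
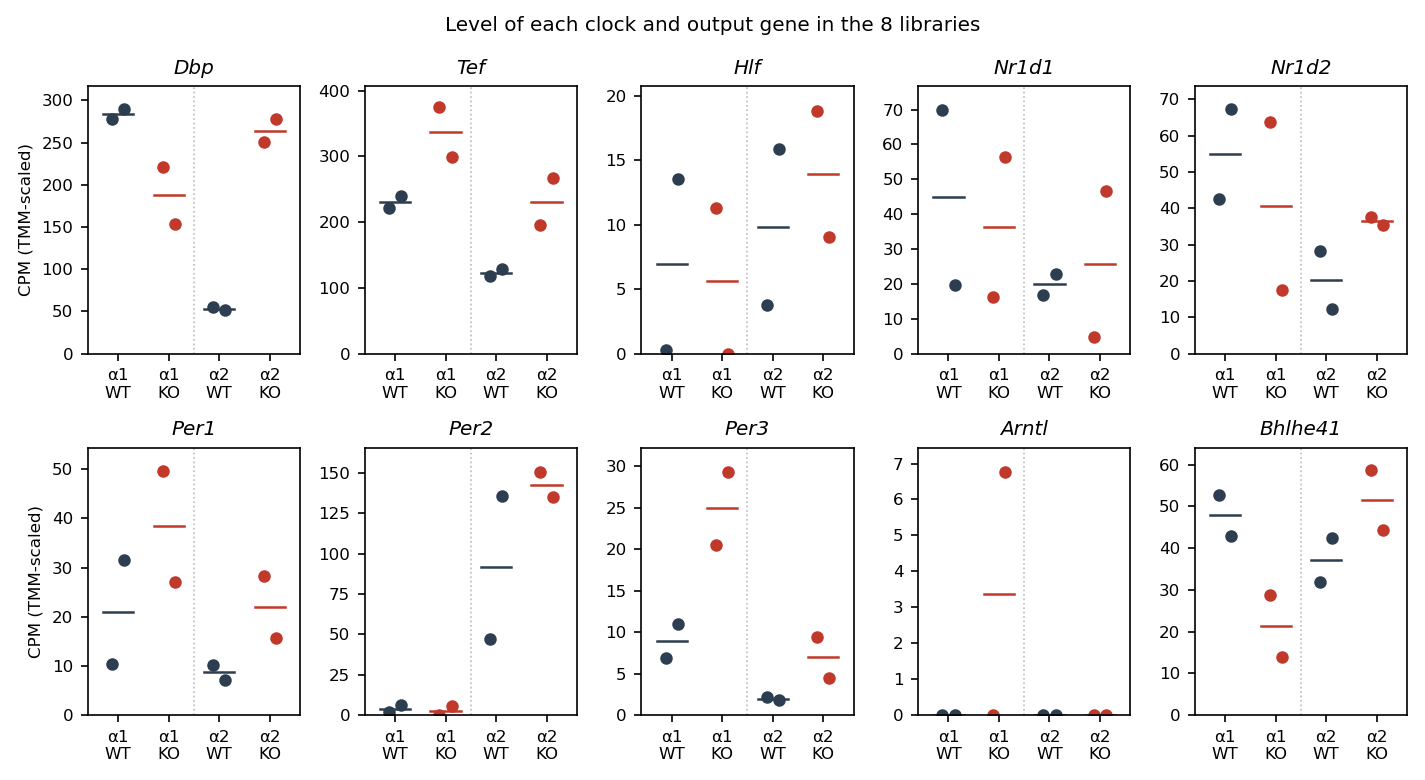
Each panel shows 1 gene, with the TMM-scaled level in CPM on a linear axis and the WT and KO groups of both models along the bottom. Points are single mice and lines are means of 2 mice. Dbp stands at 250.4 and 277 CPM in AMPKα2 KO and 55.2 and 51.2 CPM in AMPKα2 WT mice, while in AMPKα1 its KO mice are the lower ones, and the Per2 panel for AMPKα2 holds antisense reads.

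No member passed the test in AMPKα1. All 10 members reached 16 reads over the 4 libraries, and edgeR called 0 of them at an adjusted p under 0.1, as it called 0.0% of the 13941 genes tested. At an unadjusted p under 0.05 there were 587 genes and 0 members, and DESeq2 called 29 genes higher and 95 lower, again with 0 members. The fitted log2 fold change was above 0 for 4 of the 10 members, Tef, Per1, Per3 and Arntl, compared with 48.9% of all genes. Both KO mice were above both WT mice for 2 members, Tef and Per3, against 14.2% of all genes, and below for 2, Dbp and Bhlhe41, against 18.1%. The members thus showed no common direction in AMPKα1. Leaving out 1 library turned the sign for Hlf (4.16 without WT 2), Nr1d1 (0.87 without WT 1), Nr1d2 (0.15 without KO 2) and Per2 (0.45 without WT 2), while Dbp, Tef, Per1, Per3 and Bhlhe41 kept theirs without any 1 library.

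In AMPKα2, described without a test, 9 of the 10 members reached 16 reads over the 4 libraries and Arntl had none. The fit over all genes called 1 of the 9, Dbp, which chose the set, beside 0.673% of 10552 genes. All 9 fitted log2 fold changes were above 0, where 49.6% of all genes were, and they ranged from 0.45 for Nr1d1 to 2.29 for Dbp. Both KO mice stood above both WT mice for 6 of the 9, which were Dbp, Tef, Nr1d2, Per1, Per3 and Bhlhe41, beside 19.3% of all genes, and below for 0 of the 9, beside 20.3%. The median of the 9 was 0.78, and that of all genes was -0.0046. These counts and this median include Dbp, whose own value chose the set. They also include Per2, whose AMPKα2 reads were nearly all antisense. Members above 0 were 7 of 8 without KO 1, 7 of 8 without KO 2, 8 of 9 without WT 1 and 9 of 9 without WT 2, with Per3 under 16 reads where 8 are given. With sites on the strand of the gene alone, 8 members were tested, 8 were above 0 and the median was 1.09. Without KO 2, Nr1d1 was at -2.03. The number of all genes called was itself unsteady, with 29 higher and 13 lower without KO 1 and 8 higher and 30 lower without WT 1.

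Library totals in place of TMM factors moved the median of all genes from -0.031 to 0.22 in AMPKα1 and from -0.0046 to -0.19 in AMPKα2. On that scale 5 of 10 members were above 0 in AMPKα1, where Nr1d1 turned to 0.067, and 9 of 9 in AMPKα2, where the members' median was 0.57.

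**Figure D2:**
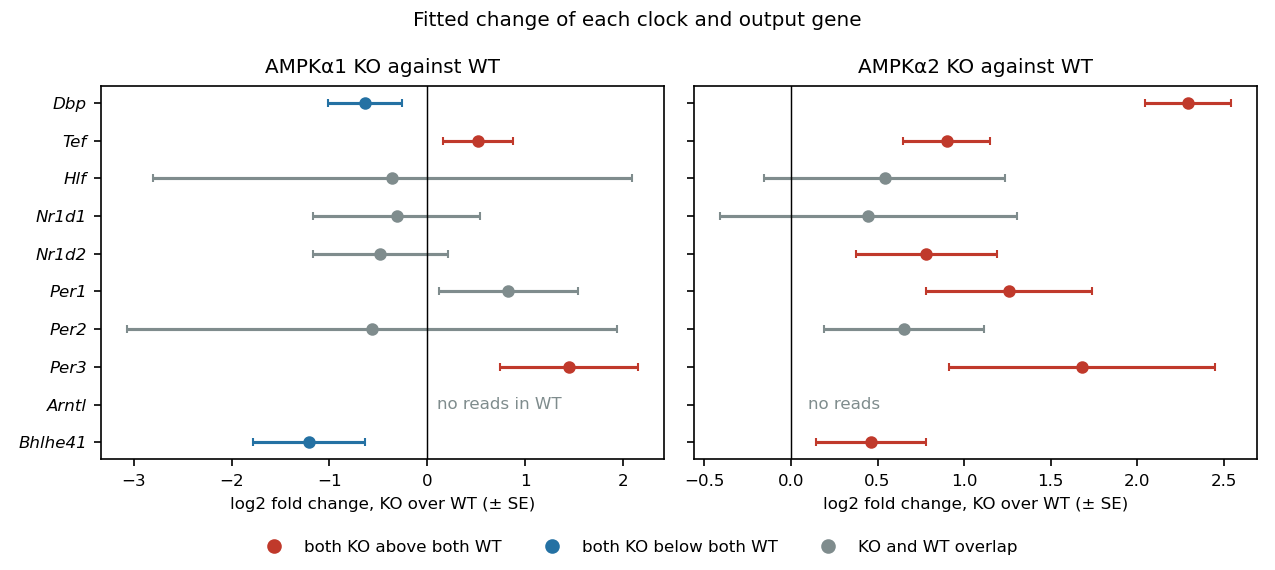
Points are fitted log2 fold changes of KO over WT per gene, with bars of 1 SE, in AMPKα1 (left) and AMPKα2 (right, given as a description), and the axes of both panels differ. Members of AMPKα1 lie on both sides of 0, from -1.21 for Bhlhe41 to 1.45 for Per3, and those of AMPKα2 lie above 0. Arntl had no reads in either WT group and is marked instead of plotted.

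Site by site, most reads of these genes came from exons, a share carried by Dbp and Tef. Of the members' reads, 92.7% fell at 31 sites in exons, 2.66% at 11 sites in introns, 1.61% at 4 sites within 2 kb downstream and the rest at 2 antisense sites. The leading site held 98.9% of the reads of Dbp, 96.2% of Per1, 89.3% of Tef and 83.0% of Nr1d2. For Nr1d1 it held 57.3%, for Bhlhe41 48.0% and for Hlf 41.1%. Tef had the most sites, 13, and Dbp had 3. The leading sites of Tef, Nr1d1, Nr1d2, Per1 and Dbp lay from 0 to 176 bases before the annotated end, and those of Hlf (2027 bases), Bhlhe41 (2979), Per2 (7961, antisense), Per3 (27420) and Arntl (43492, in an intron) lay farther before it.

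The last 30 bases up to some of these sites are shown with the polyadenylation hexamers AATAAA and ATTAAA in capitals (GRCm38). The Dbp and Tef sites are given because they carried nearly all reads of the 2 genes, and the Bhlhe41 pair because its members are neighbours that differed in AMPKα1. One of the 2 hexamers was in 40.7% of all 19925 such windows and in 58.4% of those at the leading site of a gene. The Dbp window held neither.
Dbp, chr7:45709998-45710027, plus strand: cagacaaatacatttatatttttaagaaaa
Tef, chr15:81826834-81826863, plus strand: caaacaaaATTAAAtattttgagacgagaa
Bhlhe41 leading site, chr6:145861222-145861251, minus strand: cttactaaggAATAAAatgtttatatatga
Bhlhe41 upstream site, chr6:145861375-145861404, minus strand: ATTAAAcaAATAAAaatattatctgcaaga

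The Dbp site at chr7:45710027 lies in the last exon, 176 bases before the annotated end, within Sphk2 on the other strand. It had 195 and 340 reads in AMPKα2 KO and 94 and 49 in WT mice, and 1408 and 1049 in AMPKα1 KO and 965 and 1885 in WT mice. The 2 minor Dbp sites had reads in AMPKα2 alone, 45 in all at chr7:45709745 and 20 at chr7:45708504. The Tef site at chr15:81826863 is the annotated end of the gene, and it had 2317 and 1786 reads in AMPKα1 KO and 682 and 1399 in WT mice. In AMPKα2 the KO mice had 118 and 243 reads there and the WT mice 177 and 96, or 161 against 90.2 CPM on average. A Tef exon site 5480 bases before the end, chr15:81821383, had 24 and 58 reads in AMPKα2 KO, 10 and 16 in WT mice and 0 in AMPKα1. The Tef difference of AMPKα2 was therefore present at more than 1 site. Other Tef sites with at least 50 reads over the 8 libraries were chr15:81823172 (175 reads), chr15:81805861 (115), chr15:81826520 (107), chr15:81816606 (93) and chr15:81817238 (57). Of their AMPKα1 reads, chr15:81816606 had 83 of 90 in KO 2 and chr15:81817238 had 26 of 27 in WT 2.

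Bhlhe41 used neighbouring sites differently from library to library. Its leading site, chr6:145861222, had 129 and 38 reads in AMPKα1 KO and 108 and 95 in WT mice. The site 153 bases upstream, chr6:145861375, had 0 reads in both AMPKα1 KO mice and 57 and 29 in WT mice, which against a floor of 3 reads per library was at least 23.0-fold lower in KO. Without WT 1 this limit was 9.80-fold, and without WT 2 it was 36.1-fold. The limit covers counting error only, and zeros were frequent in AMPKα1 KO libraries. Where 1 AMPKα1 KO mouse had 50 reads or more at an APS, the other had none at 30.4% of sites. The edgeR test over all APSs did not call it (adjusted p = 0.543), whereas DESeq2 gave an adjusted p of 0.0645. In AMPKα2 the KO mice had 12 and 12 reads at that site and the WT mice 7 and 13. Another site 949 bases past the annotated end, chr6:145857294, had 54 and 56 reads in AMPKα1 KO and 14 and 96 in WT mice.

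The leading sites of Per1, Nr1d1 and Nr1d2 kept the direction of their gene sums in AMPKα1, while that of Hlf departed from its sum. In AMPKα2 the leading site of Nr1d1 departed from the gene sum, and that of Nr1d2 overlapped between the groups where its sum did not. The Per1 site at chr11:69109949, 11 bases before the end, had 317 and 175 reads in AMPKα1 KO and 36 and 198 in WT mice. The Nr1d2 site at chr14:18204057, 3 bases before the end, had 366 and 120 reads in AMPKα1 KO and 138 and 324 in WT mice. In AMPKα2 this site was at 18.8 and 22.5 CPM in KO and 20.55 and 9.71 CPM in WT mice, a log2 fold change of 0.28. The separation of the Nr1d2 sum in AMPKα2 thus needed its minor sites. The leading Per3 site, chr4:151031072, lies in a Per3 exon 27420 bases before the annotated end and inside the span of Camta1 on the same strand, like the other 2 Per3 sites. It had 74 and 200 reads in AMPKα1 KO and 17 and 71 in WT mice. The Nr1d1 site at chr11:98767932, the end of the gene, had 50 and 222 reads in AMPKα1 KO and 147 and 116 in WT mice, while Nr1d1 sites 157 bases (chr11:98768089, 212 reads), 212 bases (chr11:98768144, 103) and 60 bases (chr11:98767992, 66) before it added to the sum over the 8 libraries. In AMPKα2 the end site had 2 and 6 reads in KO mice against 13 and 6, a log2 fold change of -0.93 where the gene sum gave 0.45. At chr11:98768144 all 73 AMPKα1 reads came from KO 2. An Nr1d2 site at chr14:18204651 had 56 reads over the 8 libraries, 40 of them in AMPKα1 KO 1. The Hlf site at chr11:90338563 had 72 and 0 reads in AMPKα1 KO and 1 and 0 in WT mice. The log2 fold change of that site was 4.98, compared with -0.36 for the gene sum. Reads of Hlf in AMPKα1 WT 2 came instead from chr11:90338367 (42) and chr11:90339155 (46), which had 0 in the other 3 AMPKα1 libraries.

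Reads of single sites were concentrated in single mice in AMPKα1. Of its 37 member sites with at least 16 reads, 43.2% had at least 90% of their reads in 1 library, compared with 30.4% of all sites. In AMPKα2 this was so for 4.17% of 24 member sites and 0.469% of all sites. No member site was called in AMPKα1 (0 of 37, edgeR, beside 0.00454% of 44024 APSs), where 1 member site and 1353 sites in all had an unadjusted p under 0.05 and DESeq2 called 1 member site. In AMPKα2, given as a description, 0 of 24 member sites were called, beside 0.056% of 23218 APSs.

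**Figure D3:**
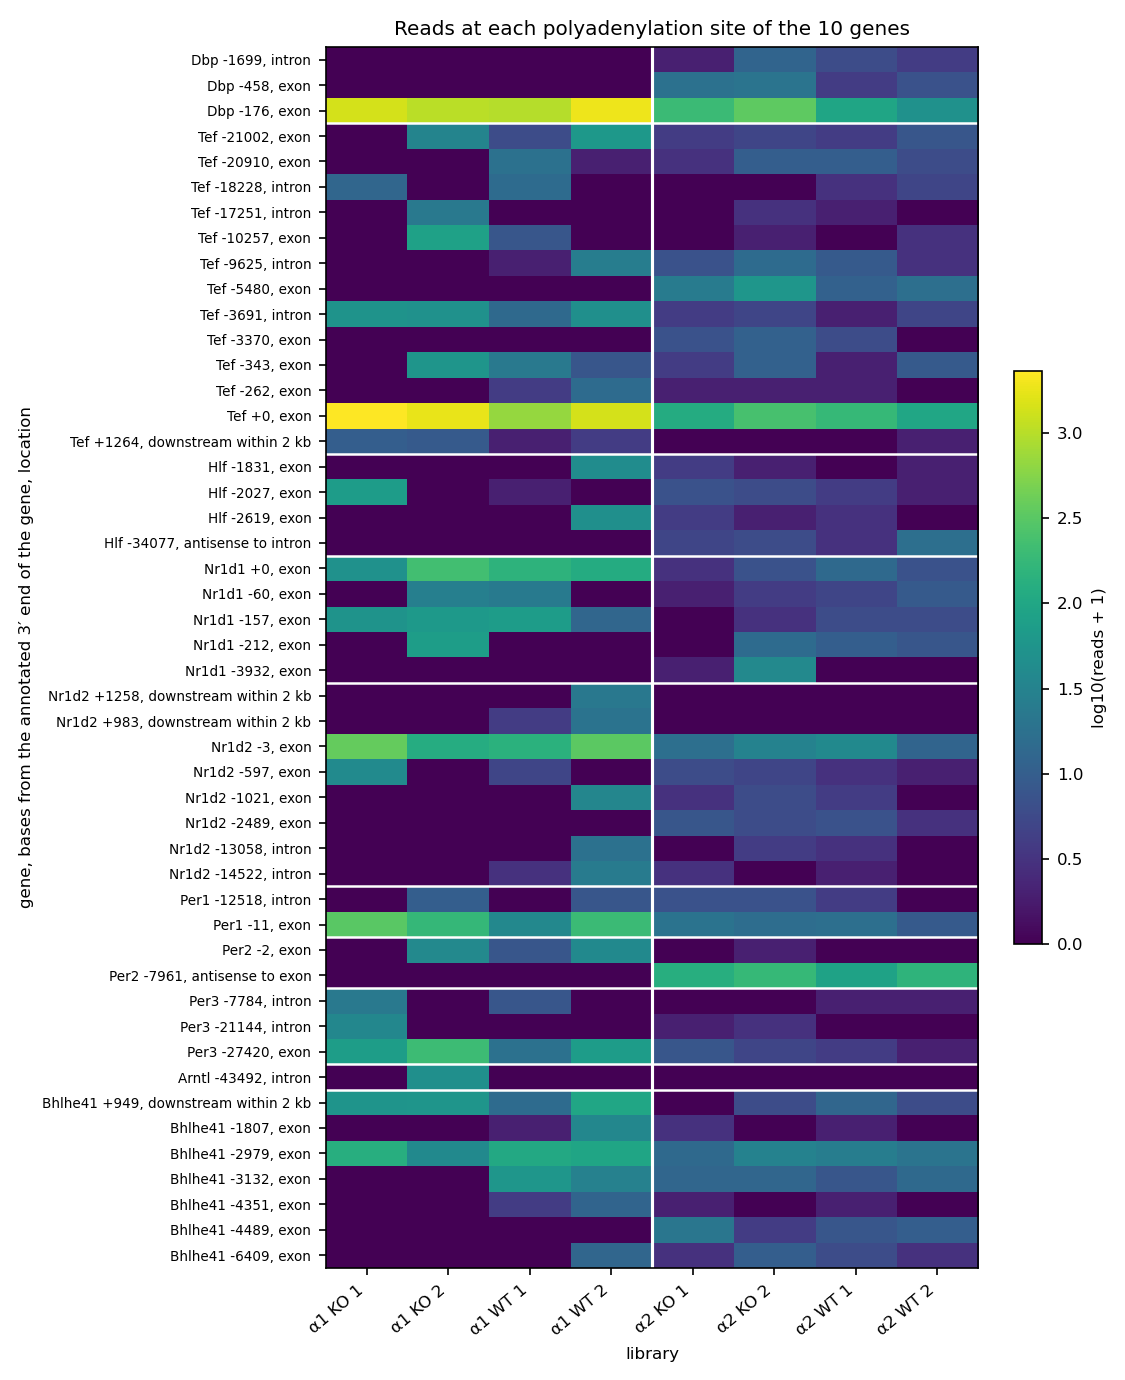
Rows are the 48 APSs of the 10 genes, labelled by gene, by the distance in bases from the annotated 3′ end of the gene (negative before the end) and by location, and columns are the 8 libraries. Colour gives log10 of the reads plus 1. Single bright cells in AMPKα1 rows, such as the Arntl site with 46 reads in KO 2, stand beside more even rows in AMPKα2, and the antisense Per2 row is filled in AMPKα2 alone.

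Other genes of the clock were taken from lists of its arms, which hold the members as well. Of the 28 listed clock genes that are not members, 24 were in the data. In AMPKα1, 24 were tested, 0 were called by edgeR in either direction, and 13 had a log2 fold change above 0, beside 48.9% of all genes. In AMPKα2, 19 were tested, and 1 was called higher and 0 lower, beside 0.673% of all genes called. Of the 19, 14 were above 0, beside 49.6% of all genes, and the median was 0.34, against -0.0046 for all genes. Both KO mice were above both WT mice for 9, beside 19.3% of all genes, and below for 3, beside 20.3%. Usp2, a deubiquitinase of clock proteins that is itself rhythmic, was the one called higher in AMPKα2, at 637 and 495 CPM in KO and 184 and 218 CPM in WT mice. In AMPKα1 Usp2 overlapped between the groups, at 273 and 380.1 CPM against 379 and 279 CPM. As for Dbp, then, Usp2 was well above WT in AMPKα2 KO mice and not in AMPKα1 KO mice.

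In the positive limb, 3 of 4 genes were in the data. Clock, the partner of BMAL1, was at 1.18 and 10.5 CPM in AMPKα2 KO and 10.8 and 8.83 CPM in WT mice. Npas2, which can stand in for Clock, was at 30.6 and 26.2 CPM in AMPKα2 KO and 9.19 and 19.4 CPM in WT mice. In AMPKα1 edgeR called 0 of the 3, Arntl included, and Npas2 and Arntl had reads in KO 2 alone. In AMPKα1 Clock was at 6.27 and 25.1 CPM in KO and 7.79 and 1.23 CPM in WT mice. All 3 genes had a fitted log2 fold change above 0 there and their highest level in KO 2, and the KO and WT groups overlapped for all 3.

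In the negative limb, 9 of 9 genes were in the data. In AMPKα2, 7 were tested, 7 were above 0 (49.6% of all genes) and 6 had both KO mice above both WT mice (19.3% of all genes), with a median log2 fold change of 1.14. Without Per2 and its antisense reads, 6 of 6 were above 0 and the median was 1.18. Bhlhe40 (DEC1), the relative of Bhlhe41, was at 38.8 and 36.0 CPM in AMPKα2 KO and 12.4 and 22.1 CPM in WT mice. Cry2, a partner of the Period proteins in repression, was at 27.0 and 27.7 CPM in AMPKα2 KO and 21.6 and 21.2 CPM in WT mice. In AMPKα1, Cry2 was at 177 and 57.3 CPM in KO and 30.02 and 54.3 CPM in WT mice, a difference that did not pass the test (log2 fold change 1.42 ± 0.65, SE, adjusted p = 0.763, edgeR). Of the 9 tested in AMPKα1, 5 were above 0 and 0 were called.

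Among the ROR element factors, Rora, an activator of Arntl, was at 248 and 248 CPM in AMPKα2 KO and 193 and 166 CPM in WT mice. Of the whole list, 4 of 4 tested were above 0 in AMPKα2 (median 0.45), compared with 2 of 5 in AMPKα1. All 3 tested D-box factors were above 0 in AMPKα2 (median 0.90), and 1 of 4 in AMPKα1. The 3 were the members Dbp, Tef and Hlf, so in AMPKα2 this list adds no gene to them, and Dbp chose the set. Of the 7 tested genes of clock protein turnover, 4 were above 0 in AMPKα2, and the median was 0.00089. There Csnk1e, a kinase of the Period proteins, was at 18.8 and 27.0 CPM in KO and 19.5 and 15.0 CPM in WT mice, and Gsk3b at 97.6 and 81.7 against 83.3 and 94.4 CPM. Of 6 tested clock outputs in AMPKα2, 5 were above 0 (median 0.35). Tcap, a sarcomeric gene under clock control in muscle, was at 4341 and 4487 CPM in AMPKα2 KO and 2335 and 2272 CPM in WT mice. In AMPKα1 Tcap took the opposite order, at 2993 and 2356 CPM in KO and 4885 and 4379 CPM in WT mice, without passing the test (log2 fold change -0.83 ± 0.30, SE, adjusted p = 0.763, edgeR). These orders were also those of 3.89% of the genes tested in both models. The myofibre markers Tnnt3, Myh4 and Atp2a1 shared them, while the other myofibre markers overlapped in at least 1 model. Gpcpd1, another output, overlapped between the groups in both models.

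Lists of genes that follow stress hormones, acute stimulation and fasting are given beside these values, and their part in the clock values was not tested. In AMPKα2, 49.6% of all genes were above 0 and their median was -0.0046. Of 9 tested glucocorticoid targets, 2 were above 0 in AMPKα2 and 1 was called lower, with a median of -0.56. The one called was Mt2, a metallothionein named here after its values were seen, at 3.53 and 4.5 CPM in KO and 69.2 and 54.7 CPM in WT mice. Klf9, a glucocorticoid target, was at 212 and 301 CPM in AMPKα2 KO and 195 and 225 CPM in WT mice, Zbtb16 at 250.4 and 232 against 221 and 235 CPM, and Pdk4, which is induced by fasting, at 259 and 199 against 303 and 597 CPM. Of 7 immediate early genes, 3 were above 0 (median -0.19), with Nr4a1 at 58.8 and 66 CPM in KO and 56.2 and 45.0 CPM in WT mice, Jun at 167 and 200.2 against 114 and 154 CPM, and Btg2 at 10.6 and 8.25 against 14.6 and 15.9 CPM. Of 5 fasting and disuse genes, 1 was above 0 (median -0.55), with Fbxo32 at 106 and 130.5 CPM in KO and 97.3 and 124 CPM in WT mice and Trim63 at 233 and 346 against 439 and 349 CPM. In AMPKα1, 0 genes of these lists were called by edgeR, and 3 of 9, 3 of 8 and 2 of 6 genes were above 0.

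**Figure D4:**
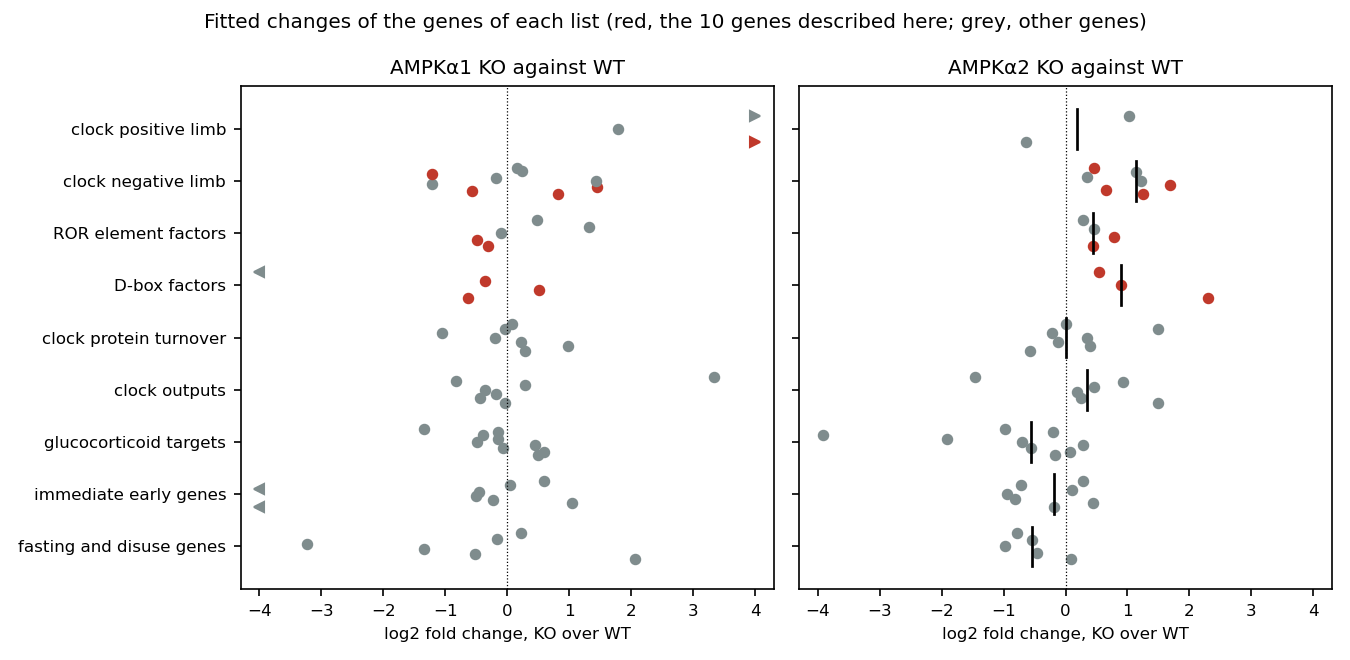
Each point is the fitted log2 fold change of KO over WT for 1 gene of a list, in AMPKα1 (left) and AMPKα2 (right), with members in red and other genes in grey. Triangles at the edge stand for values beyond 4 in either direction, and black bars in the AMPKα2 panel are medians, such as 1.14 for the negative limb and -0.56 for glucocorticoid targets.

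Cell type markers also differed between the groups, and their part in the clock values was not tested. The 7 slow fibre markers summed to 4284 to 4466 CPM in AMPKα2 KO and 1334 to 2832 CPM in WT mice, and to 1226 to 2918 against 886 to 1093 CPM in AMPKα1. The 9 myofibre markers summed to 115070 to 147610 CPM in AMPKα2 KO and 99273 to 108210 CPM in WT mice, and to 37634 to 45662 against 54925 to 79225 CPM in AMPKα1. Adipocyte markers (6 of 7 detected, Lep not) overlapped between the groups in both models, at 352 to 581 CPM in AMPKα2 KO and 473 to 1075 CPM in WT mice. Fibroblast markers (5 of 5) were at 4018 to 6717 CPM in AMPKα2 KO and 3111 to 4131 CPM in WT mice. The ranges of this list overlapped, as did those of the macrophage, blood, endothelium, smooth muscle and nerve lists in AMPKα2. In AMPKα1, KO was below WT without overlap for fibroblast (5910 to 6159 against 6463 to 8459 CPM), smooth muscle (47.2 to 54.9 against 60.04 to 100.01 CPM) and nerve markers (245 to 313 against 335 to 622 CPM), whereas the ranges of blood, macrophage, endothelium and adipocyte markers overlapped.

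Genes most like Dbp were ranked by the mean absolute difference of log2 CPM from Dbp over the 8 libraries, after each gene with at least 100 reads in all was centred within each model. The same values chose Dbp and the likeness is a description. Of 9971 genes ranked, the 5 nearest were Rhobtb1 (0.192), Nrg3 (0.259), Foxn4 (0.261), Gulp1 (0.264) and Ripk4 (0.267). Rhobtb1 had 7.05 and 10.5 CPM in AMPKα2 KO and 1.62 and 1.77 CPM in WT mice, Gulp1 396 and 444 against 105 and 149 CPM, and Nrg3 42.3 and 30.7 against 8.65 and 11.5 CPM. The WT levels of Rhobtb1 were at or under the floor of 3 reads, which equalled 1.62 CPM in WT 1 and 2.65 CPM in WT 2. Its nearness to Dbp in AMPKα2 thus rests on few reads. Foxn4 was at 134 and 121 CPM in AMPKα2 KO and 37.9 and 23.8 CPM in WT mice, and Ripk4 at 223 and 227 against 57.9 and 66.2 CPM. Nrg3 encodes an ErbB4 ligand, Foxn4 a forkhead factor, Gulp1 an engulfment adaptor and Ripk4 a kinase. These 5 shared the AMPKα2 order of Dbp, but Foxn4 and Ripk4 had no reads and Nrg3 had 0 to 0.154 CPM in AMPKα1, so that the likeness of these 3 rests on AMPKα2. Usp2 was at rank 32, Nr1d2 at 385, Bhlhe41 at 540, Tef at 767, Per1 at 954, Per3 at 2107, Per2 at 6289, Nr1d1 at 7973 and Hlf at 9055. The ranked partners of Dbp in the loop thus stood behind Usp2 on this measure. It counts the size of a change as well as its direction, so the ranks do not tell whether a partner moved the same way as Dbp.

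The 2 mice of a group gave the spread against which these values stand. Between AMPKα1 KO mice, 4 of 10 members were higher in mouse 2 and the median difference was -0.42 on the log2 scale, with 0.37 and 7 of 10 for AMPKα1 WT mice. For AMPKα2 the medians were -0.16 in KO (3 of 9 members higher in mouse 2) and 0.12 in WT mice (5 of 9). The widest gap within an AMPKα2 group was that of Nr1d1 between the KO mice, 3.16. With 2 mice per group an exact permutation test of a single gene cannot give a two-sided p below 0.333, and the labels do not say that mice of a group came from separate litters, so the spread measured here is that between these animals.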

How the data were processed

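The authors sequenced WTTS-seq libraries on an Ion Torrent instrument, filtered the reads with the FASTX Toolkit 0.0.13.1, removed leading Ts, mapped reads of at least 16 bases with TMAP 3.4.1, clustered read ends within 24 bases into APSs and assigned these to genes with Cuffcompare 2.2.1. The deposited values are raw counts of reads per APS and library, and every APS in the table has 16 reads or more in total. The submitters' processing notes name GRCm38.p5, and locations were read from GENCODE M21.

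Here counts were summed per gene over all of its APSs. KO was compared with WT within each model by edgeR 4.0.16 (limma 3.58.1, R 4.3.3), with TMM factors, a robust quasi-likelihood fit, a minimum of 16 reads per feature in those 4 libraries, and calls at a Benjamini-Hochberg adjusted p under 0.1 over all genes or all APSs. SEs are approximate, computed as the log2 fold change over the root of F. DESeq2 1.42.0 with its defaults was an alternative. The code was tested on simulated data. Tables and figures used Python 3.11.15, pandas 2.3.3, numpy 2.4.6 and matplotlib 3.10.9.

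The members, lists and tests were chosen with earlier results of these data known. Named were the 10 members, their leading sites and sites with at least 50 reads, the 3 genes of each list with the most reads, and the 5 genes nearest to Dbp. The result of 1 gene under this rule is not reported here. Between 2311242 and 3549156 reads per library set the precision, and limits from counts cover counting error only, because reads lack molecular identifiers. Other settings tried were DESeq2, library totals, RLE factors, no filter or filterByExpr, all 8 libraries in 1 fit, an adjusted p of 0.05, a replicate block, same-strand or leading APSs only, and each library left out in turn.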

Additional observations from a re-analysis of the deposited data

Results flagged for a closer look

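For 2 of the 10 genes, every KO mouse stood on one side of WT in AMPKα1 and on the other side in AMPKα2, as was the case for 6.61% of the 9419 genes tested in both models. Dbp had a ratio of KO to WT mean CPM of 0.659 in AMPKα1 and 4.96 in AMPKα2. Bhlhe41 had ratios of 0.445 and 1.39, and its closest AMPKα2 mice were at 44.2 (KO) and 42.4 CPM (WT). The AMPKα2 value of Dbp chose the set, the models also differ in age and possibly strain, and the difference between the models was not tested.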

How the results depend on the processing

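The count of AMPKα1 members called at gene level was 0 under every alternative run, and 0 with each library left out. In AMPKα2 it was 1 as reported, 2 without a filter on low counts (Dbp and Tef), 0 with all 8 libraries in 1 fit, and 1 with each library left out. At APS level, 0 member sites were called in either model with each library left out. In AMPKα1, DESeq2 and the fit of all 8 libraries called 1 site each, the Bhlhe41 site at chr6:145861375. In AMPKα2, DESeq2 called 1, the leading Dbp site, and 3 were called without a filter on low counts and 3 with the replicate block, adding the Tef site at chr15:81821383 and an Nr1d1 site at chr11:98771864. The cause was not tested.

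Of 88 gene values of AMPKα1 under alternatives other than leaving out a library, 86 kept direction and side of the threshold, and of 77 in AMPKα2, 76 were above 0, the exception being Nr1d1 with only the APS of most reads. Members of AMPKα2 with both KO mice above both WT mice were 6 as reported, 5 with library totals (without Nr1d2) and 7 with same-strand APSs (with Hlf). The log2 fold change reversed to 5.15 for Hlf with only the APS of most reads and to 0.067 for Nr1d1 with library totals. For AMPKα1 sites it reversed to -1.85 at the Tef site chr15:81826520 with the replicate block, and at the Nr1d1 site chr11:98768089 to 0.0041 with library totals and 0.32 with the replicate block. With 1 AMPKα1 library left out, values ranged from -8.29 to 4.16 for Hlf, -1.53 to 0.87 for Nr1d1, -1.65 to 0.15 for Nr1d2 and -7.49 to 0.45 for Per2. By site they ranged from -7.96 to 0.56 (Tef chr15:81805861), -7.50 to 1.86 (Tef chr15:81826520), -2.20 to 0.11 (Nr1d1 chr11:98767932), -7.35 to 6.73 (Nr1d1 chr11:98767992), -1.43 to 2.14 (Nr1d1 chr11:98768089), -1.46 to 0.13 (Nr1d2 chr14:18204057), -7.54 to 0.34 (Per2 chr1:91415984) and -0.92 to 0.85 (Bhlhe41 chr6:145857294).

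Counts of all features called depended more on the settings. In AMPKα1, genes called higher and lower were 29 and 95 with DESeq2 and 11 and 75 with all 8 libraries in 1 fit, against 0 and 0. APSs were 43 and 175 with DESeq2, 36 and 447 with all 8 libraries, 18 and 30 with library totals and 15 and 155 without WT 2, against 0 and 2. In AMPKα2, genes were 82 and 103 with library totals, 260 and 137 without a filter, 2 and 4 with all 8 libraries and 57 and 25 with DESeq2, against 39 and 32. APSs were 15 and 27 with library totals, 81 and 15 with DESeq2, 425 and 132 without a filter, 2 and 5 with all 8 libraries, 7 and 69 without WT 1, 0 and 0 without WT 2 and 368 and 151 with the replicate block, against 6 and 7. KO and WT mice share replicate numbers in the labels but not a source, and deviations of same-numbered mice correlated at 0.035 in AMPKα1 and 0.0050 in AMPKα2, so that the numbers were not taken as pairs. The block changed no other call of a member or of its sites.

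Depth limited Arntl, Hlf, sense Per2 and, in AMPKα2, Per3, whose counts per library were between 0 and 88. Counts in AMPKα2 libraries were within that range also for Per1 (8 to 24 reads), Nr1d1 (4 to 62), Nr1d2 (14 to 52) and Bhlhe41 (48 to 59).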
